A study of Homo sapiens with 16 samples.

Results

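FASN encodes fatty acid synthase, the cytosolic enzyme that builds palmitate from acetyl-CoA and malonyl-CoA with NADPH. The gene is driven by the sterol regulatory element binding proteins and by androgens, and its product is abundant in many prostate cancers. HOXB13 is a homeodomain protein that binds DNA in cells of the prostate. HDAC3 is the deacetylase of the NCOR and SMRT corepressor complexes, HDAC1 belongs to other corepressor complexes, and acetylation of histone H3 lysine 27 (H3K27ac) marks active promoters and enhancers. The data described here are the peaks called by the authors over FASN and its surroundings, on hg19 chromosome 17 from 79990000 to 80110000. FASN spans 80036214 to 80056106 on the minus strand, so transcription starts at 80056106 and runs towards lower coordinates. Every peak overlapping that window of 120 kb was taken, which gave 59 of the 816313 peaks in the 12 lists.

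The libraries came from 2 established prostate cancer lines, LNCaP, which responds to androgen, and PC-3, which grows without it. LNCaP cells carried for 7 days an shRNA against HOXB13 (shHOXB13), the same shRNA with a lentivirus for HOXB13-G84E or HOXB13-WT, or the control shRNA vector (pGIPZ). HOXB13 was immunoprecipitated from all 4 of these LNCaP groups and from PC-3 with pGIPZ. HDAC3 and open chromatin (ATAC-seq) were mapped in LNCaP with shHOXB13 and with pGIPZ, HDAC1 in LNCaP with pGIPZ, and H3K27ac in PC-3 with shHOXB13 and with pGIPZ. The length of the PC-3 infections is not given in the sources used here, and LNCaP H3K27ac was not analysed here. G84E is a glycine-to-glutamate form of HOXB13 known as an inherited risk variant, and either form was introduced together with the shRNA rather than at the gene's own locus. Each group was 1 library, so nothing was tested between groups and no p-value is given. The intervals are 95% exact intervals of the tags (aligned reads) counted in a peak and cover counting error only. Library depth ranged from 13.5 M tags (PC-3 H3K27ac, shHOXB13) to 47.2 M (LNCaP HOXB13, shHOXB13), with M for mega. All values are normalized tag counts, the tags in a peak scaled to a library of 10000000 tags.

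Nearly all HOXB13, deacetylase and ATAC peaks around FASN lay outside the gene. Of the 45 peaks in those 10 lists, 24 lay upstream of the promoter, 19 downstream of the gene, 1 in its body and 1 over its promoter, taken as 1 kb on either side of the start. The gene itself takes up 19893 bp of the 120000 bp of the window, so most of the window lies outside it. When peaks overlapping by at least 1 bp were joined, the 45 peaks made 23 sites, of which 15 were called in a single list and 8 in 2 or more. Shares over the genome of peaks in genes, at promoters or in a single list are not given here for comparison. The 14 H3K27ac regions of PC-3 were placed differently, with 4 at the promoter, 2 upstream and 8 downstream. In the gene order of RefSeq (GRCh38.p14), the protein-coding genes next to FASN are CCDC57 on the upstream side and DUS1L, GPS1 and RFNG on the downstream side. These neighbours are given for orientation, outside the rule for named genes, and no peak was assigned to them. Positions of other genes in hg19 were not at hand. Peaks described below as at FASN are therefore those of the window, and may lie at other genes.

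**Figure D1:**
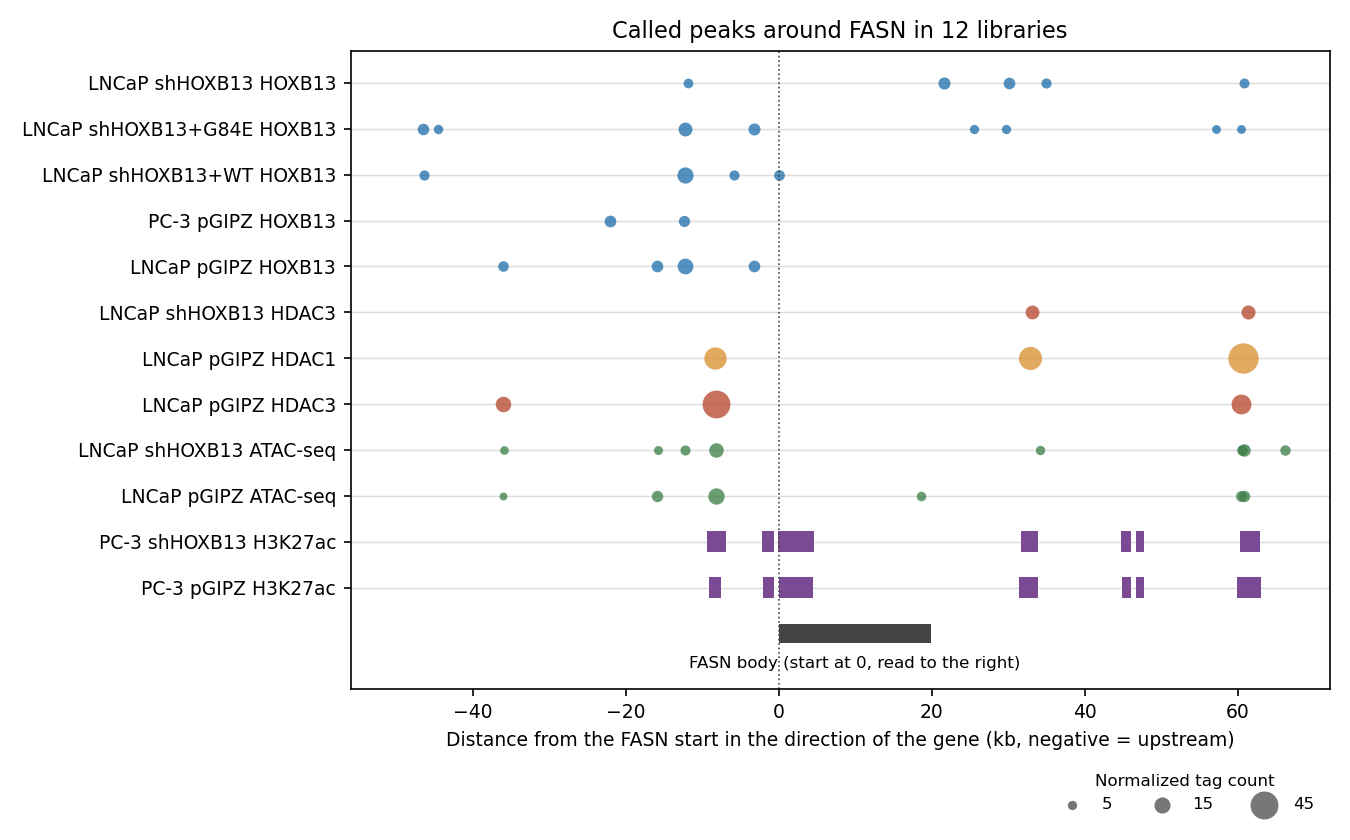
Peaks called in the 12 libraries by distance from the FASN start in kb, in the direction of the gene, with upstream to the left. Circle area follows the normalized tag count of a peak, and bars for H3K27ac show the true width of a region. HOXB13, deacetylase and ATAC peaks lie outside the gene apart from 1 ATAC peak in its body and the WT HOXB13 peak over its start, while H3K27ac regions lie on both sides of the start.

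The number of peaks in the window was near the middle of the genome for HOXB13 in control cells and higher for some other lists. The genome was cut into windows of 120 kb, and the 23702 with at least 1 peak in any list were kept. HOXB13 in LNCaP with pGIPZ had 4 peaks at FASN, and 50.7% of all windows held at least as many. With G84E there were 8 (55.8% of windows held at least 8), with WT 4 (85% held at least 4), and in PC-3 2 (63.7%). The shHOXB13 list had 5 peaks at FASN, which only 1.01% of windows matched or exceeded. The 8 ATAC peaks with shHOXB13 and the 6 with pGIPZ were matched by 1.32% and 6.59% of windows. HDAC3 had 2 peaks with shHOXB13 (34.4% of windows) and 3 with pGIPZ (21.7%), and HDAC1 had 3 (7.95%). The 7 H3K27ac regions in each PC-3 library were matched by 7.48% of windows with shHOXB13 and 8.15% with pGIPZ.

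**Figure D2:**
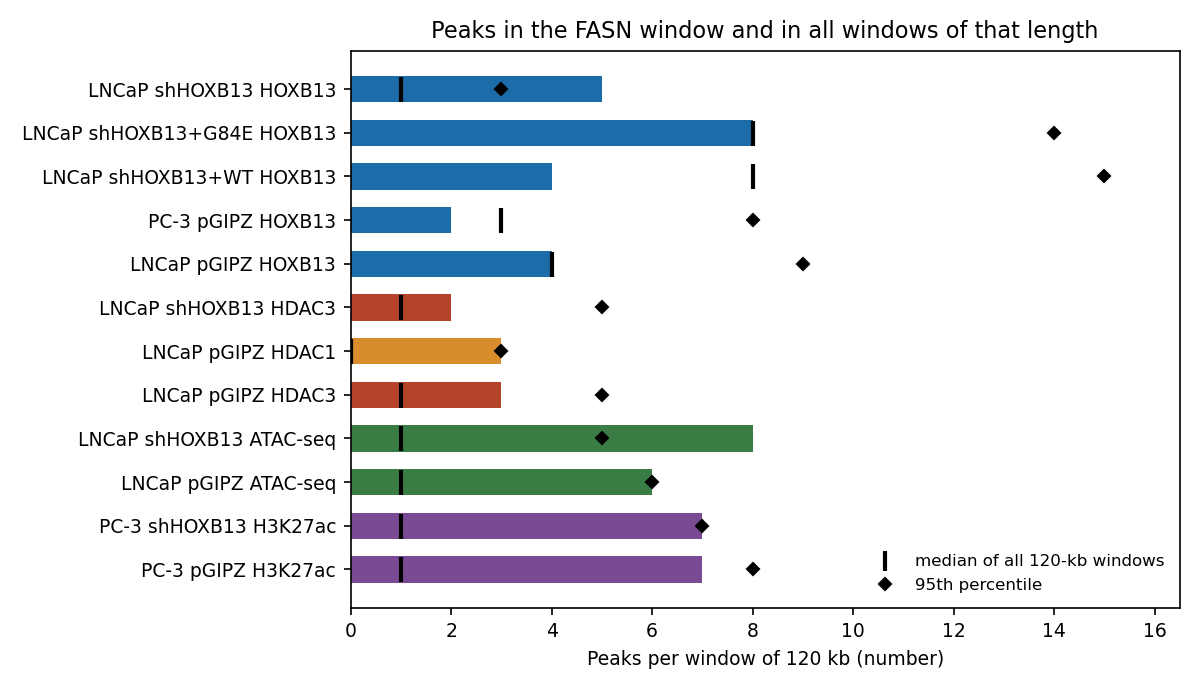
Number of peaks in the FASN window (bars) for each library, with the median (black line) and the 95th percentile (diamond) of all windows of 120 kb. The shHOXB13 HOXB13 list, with 5 peaks, and the shHOXB13 ATAC list, with 8, lie above their 95th percentiles of 3 and 5.

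In the window, HOXB13 peaks of control LNCaP cells were called only upstream of FASN, and none of them reached the start. The 4 pGIPZ peaks lay at the sites 3.28, 12.3, 16 and 36.1 kb upstream, and the nearest edge lay 3137 bp from the start. The strongest, at 80068256 to 80068546, had 14.3 normalized tags (95% interval 10.5 to 18.9) and stood at percentile 88.1 of its list. The peaks at 80059243 to 80059533 and at 80071932 to 80072222 had 7.86 each (5.18 to 11.4, percentile 56), near the middle of the list. The farthest, at 80091998 to 80092288, had 6.4 (4.01 to 9.69, percentile 32.9). None of the 4 lay under an H3K27ac region of PC-3 with pGIPZ, and 14% of all control HOXB13 peaks did. With only 4 peaks, the absence cannot be told apart from that share.

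After HOXB13 knockdown no control HOXB13 peak at FASN was called again, 0 of 4, as for nearly all control peaks (1.48% of 91430 were called again). The 5 peaks of the shHOXB13 library lay elsewhere, 4 of them downstream of the gene. At 80034366 to 80034622, 21.6 kb from the start and past the end of the gene, it had 8.48 normalized tags (6.05 to 11.5), and at 80025906 to 80026162 it had 7.84 (5.52 to 10.8). Both stood above percentile 95 of a list in which 2.13% of tags lay in peaks, against 9.17% in the control. The others had 5.93 at 80021067 to 80021323, 5.72 at 79995193 to 79995449 and 5.51 (3.6 to 8.07) at 80067900 to 80068156. The last one ended 100 bp short of the strongest control peak without overlapping it. A control peak lay at 0 of these 5 peaks, and at 5.92% of the whole shHOXB13 list.

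With either introduced form a HOXB13 peak was called at the site 12.3 kb upstream. Of all control HOXB13 peaks 54.3% were called with both forms, and of those with 14 to 15 normalized tags 87.3% were. At the site 12.3 kb upstream the G84E library had 11.1 normalized tags (8.2 to 14.7), the WT library 15.1 (11.6 to 19.5) and the pGIPZ library 14.3 (10.5 to 18.9). The 3 intervals overlapped. The log2 ratio to pGIPZ was −0.37 for G84E (95% interval −0.96 to 0.24) and 0.08 for WT (−0.48 to 0.66; −0.09 relative to the median of all shared peaks), and G84E over WT was −0.44 (−1.02 to 0.12). All shared peaks of the genome had median log2 ratios of 0.02, 0.17 and −0.13 in these comparisons. Differences of these sizes were not detectable at this depth.

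With G84E, 2 of the 4 control HOXB13 peaks at FASN were called again (63.2% of all control peaks were), those 12.3 and 3.28 kb upstream. With WT it was 1 of 4 (67.4% of all). At 3.28 kb upstream the value was 8.37 with G84E (5.9 to 11.5) and 7.86 with pGIPZ (5.18 to 11.4), a log2 ratio of 0.09 (−0.66 to 0.86), and no peak was called with WT. Neither form had a peak at the sites 16 and 36.1 kb upstream. When all control peaks were split into 10 equal groups by tag count, of the group holding the sites at 3.28 and 16 kb 61.7% were called with G84E and 67.3% with WT. For the group of the site at 36.1 kb the shares were 51.3% with G84E and 56.4% with WT.

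Each form also had peaks at FASN that control cells lacked. The WT library alone had a HOXB13 peak over the FASN start, at 80055902 to 80056176, with 6.7 normalized tags (4.42 to 9.75), at percentile 52.1 of its list. It was the only peak of the 10 factor and ATAC lists at the promoter, and it was not among the better-scoring 50% of the WT list. A WT peak with no pGIPZ and no G84E peak was common, at 38.6% of the 190879 WT peaks. WT had a further peak at 80061857 to 80062131, 5.89 kb upstream, with 5.96 (3.82 to 8.87).

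At 46.5 kb upstream both forms had a peak where pGIPZ had none, with 7.69 normalized tags for G84E (5.33 to 10.8) and 5.96 for WT (3.82 to 8.87). The log2 ratio of G84E over WT was 0.37 (−0.43 to 1.19). G84E and WT thus shared 2 of the 4 WT peaks, against 55% of all WT peaks, and 6 of the 8 G84E peaks had no WT peak, where 54.8% of all G84E peaks had one. The 5 remaining peaks of G84E had 4.53 to 5.21 normalized tags, and 4 of them lay downstream of the gene at 25.5, 29.6, 57.1 and 60.4 kb from the start. The fifth lay 44.5 kb upstream. No control peak was present at 6 of the 8 G84E peaks and 3 of the 4 WT peaks, and a control peak was present at 30.1% of all G84E and 32.3% of all WT peaks. None of the shared peaks at FASN passed a 2-fold change (log2 ratio of 1 or more either way). For G84E over pGIPZ, 6.44% of all shared peaks were 2-fold higher and 3.49% 2-fold lower. For WT over pGIPZ these shares were 10.3% and 1.48%, and for G84E over WT 0.818% and 2.86%.

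**Figure D3:**
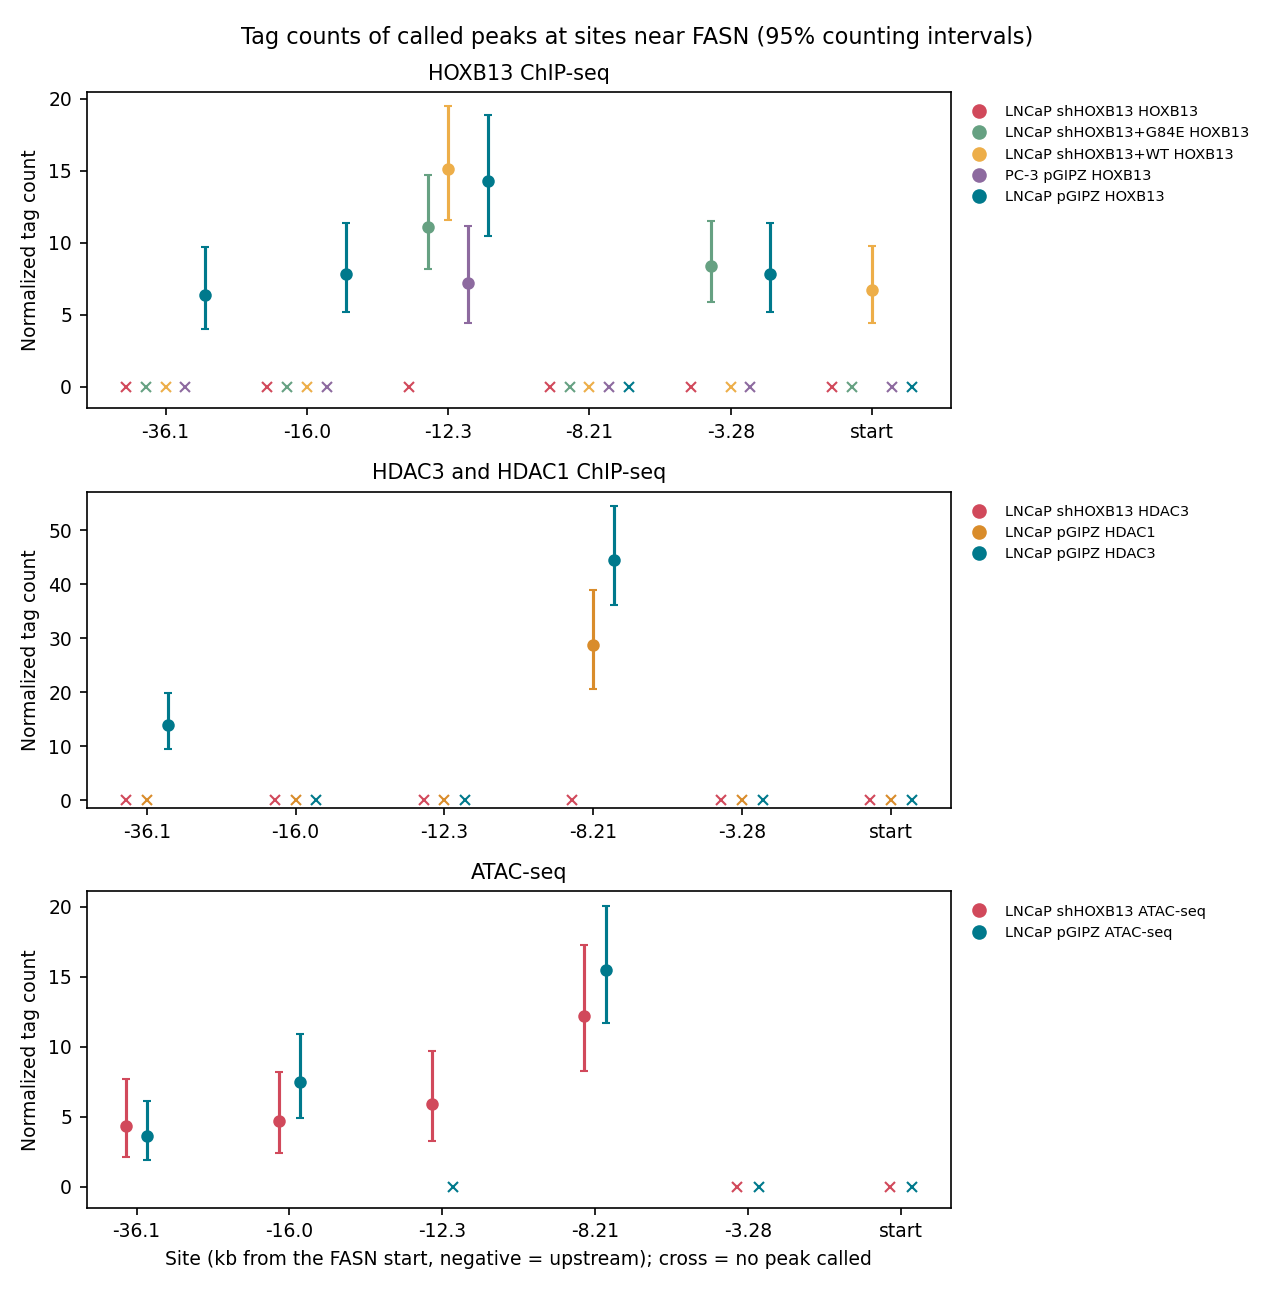
Normalized tag counts, with 95% counting intervals, at the FASN start and 5 upstream sites for HOXB13 (top), the deacetylases (middle) and ATAC-seq (bottom). A cross marks a library with no called peak. The strongest HOXB13 peaks lie 12.3 kb upstream and the strongest of the shown deacetylase and ATAC peaks 8.21 kb upstream, while the site at 36.1 kb holds HOXB13, HDAC3 and ATAC peaks.

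PC-3 shared the site 12.3 kb upstream with LNCaP. The PC-3 peak, at 80068279 to 80068669, had 7.23 normalized tags (4.42 to 11.2), at percentile 8.44 of its list. The LNCaP pGIPZ peak had 14.3, at percentile 88.1. Peak width and antibody differed between the lines, so the levels are given side by side and not compared. A PC-3 peak was called at 1 of the 4 LNCaP control peaks at FASN, and at 21.1% of all of them. The other PC-3 peak lay 22.1 kb upstream at 80078011 to 80078401, with 7.95 (4.98 to 12), where no LNCaP library had a peak. Of all PC-3 peaks, 27.2% had a LNCaP control peak. The combination seen at 12.3 kb (called with pGIPZ, WT, G84E and in PC-3, and not with shHOXB13) was found at 15.1% of all control peaks.

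The strongest deacetylase site upstream of FASN carried no HOXB13 peak in any library. It lay 8.21 kb upstream, where HDAC1 had 28.7 normalized tags (20.5 to 39) at 80064251 to 80064567 and HDAC3 44.5 (36.1 to 54.4) at 80064067 to 80064537, both in LNCaP with pGIPZ. The HDAC3 peak stood at percentile 96.5 of its list. ATAC peaks were called there with shHOXB13 and with pGIPZ, and H3K27ac regions in both PC-3 libraries. HDAC1 and HDAC3 also met 60.6 kb downstream of the start, with 53 (41.6 to 66.6) for HDAC1 and 22.7 (16.8 to 30) for HDAC3. HDAC1 thus had a peak at 2 of the 3 control HDAC3 peaks in the window, against 20.8% of all 33964. The remaining HDAC1 peak lay 33 kb downstream with 30.8 (22.3 to 41.5), where control HDAC3 had none, and 42.4% of all HDAC1 peaks had a control HDAC3 peak. The antibodies differed, so HDAC1 and HDAC3 levels are not compared.

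A single site of the window combined HOXB13, HDAC3 and open chromatin in control cells. At 36.1 kb upstream, the HDAC3 peak at 80091922 to 80092392 had 13.9 normalized tags (9.39 to 19.9, percentile 42.6) and enclosed the control HOXB13 peak of 6.4 tags and a control ATAC peak. It was 1 of the 4 control HOXB13 peaks at FASN, while 5.78% of all control HOXB13 peaks had both an HDAC3 and an ATAC peak and 13.4% had an HDAC3 peak.

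None of the 3 control HDAC3 peaks in the window was called again after HOXB13 knockdown, where 47.7% of all control HDAC3 peaks were. The 2 HDAC3 peaks of the shHOXB13 library lay downstream, with 11.4 (7.69 to 16.3) at 79994595 to 79994959 and 11 (7.38 to 15.8) at 80022855 to 80023219. Neither overlapped a control HDAC3 peak, and 52.2% of all shHOXB13 HDAC3 peaks did. The nearer control peak was 469 bp from the first of them. The second overlapped the control HDAC1 peak 33 kb downstream. At the sites 8.21 and 36.1 kb upstream the nearest shHOXB13 HDAC3 peak was 40848 and 17788 bp away.

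How often such peaks were called again over the genome differed with their strength and surroundings, by a grouping chosen after the data were seen. The control HDAC3 peak 8.21 kb upstream belonged to the strongest of 10 equal groups, of which 86.1% were called again. Its fold over the local background was 4.69, with 4 required for a call. Of the 148 peaks of that group under 5-fold over the local background, 48.6% were called again. From the lists, fewer tags at this site with shHOXB13 and a value short of the local threshold cannot be told apart. The peak 36.1 kb upstream belonged to the fifth group, of which 40.4% were called again, and the one 60.6 kb downstream to the eighth, with 65.3%. By the peaks they met in control cells, the sites 8.21 kb upstream and 60.6 kb downstream had HDAC1 and ATAC and no HOXB13. Of all control HDAC3 peaks of that kind, 23% were not called after knockdown. Of those with HOXB13 and ATAC and no HDAC1, as at 36.1 kb upstream, 39.5% were not, against 52.3% of all. Depth was 26.3 M tags with shHOXB13 and 21.6 M with pGIPZ, the share of tags in peaks was 5.08% and 7.63%, and the estimated fragment length was 364 and 146 bp. The part of these differences in the result was not tested.

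Neither ATAC library had a peak at the FASN promoter, and upstream of it overlapping peaks were called with shHOXB13 and with pGIPZ at the sites 8.21 and 16 kb away. At 8.21 kb upstream the ATAC value was 12.2 with shHOXB13 (8.27 to 17.3, percentile 93.4) and 15.5 with pGIPZ (11.7 to 20.1, percentile 98.2), a log2 ratio of −0.35 (−1.03 to 0.31). At 16 kb upstream it was 4.71 with shHOXB13 (2.43 to 8.23) and 7.47 with pGIPZ (4.92 to 10.9), a log2 ratio of −0.67 (−1.78 to 0.36), over a control HOXB13 peak. These ATAC peaks, at 80071922 to 80072032 with shHOXB13 and 80072025 to 80072121 with pGIPZ, overlapped only at their ends. Their ratio therefore sets tags of largely separate stretches against each other. The intervals of the ratios at 8.21 and 16 kb included 0 and the median of all shared ATAC peaks, 0.125. A higher ratio was found at 86% of all shared ATAC peaks for the site at 8.21 kb and at 96.4% for the site at 16 kb. Peaks were 111 bp wide with shHOXB13 and 97 bp with pGIPZ, and per kb the log2 ratios were −0.54 and −0.86 (median of all −0.07). Of the 4 shared ATAC peaks in the window, 1 had a ratio above the median of all. At 36.1 kb upstream the peaks, of 4.32 with shHOXB13 (2.16 to 7.72) and 3.6 with pGIPZ (1.92 to 6.15), lay 50 bp apart inside the control HDAC3 peak.

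Other ATAC sites were called in 1 library. At 12.3 kb upstream, within the shared HOXB13 site, an ATAC peak of 5.89 (3.3 to 9.71) at 80068310 to 80068420 was called with shHOXB13 and none with pGIPZ. In the gene body a peak of 5.26 (3.17 to 8.21) at 80037445 to 80037541, 18.6 kb from the start, was called with pGIPZ and none with shHOXB13. Its fold over the local background was 4.17. Downstream, shHOXB13 alone had peaks of 5.1 at 34.1 kb and 6.28 at 66.1 kb from the start. In all, 4 of the 6 control ATAC peaks in the window were called again, against 50% of all 37073, and 4 of the 8 shHOXB13 peaks overlapped a control peak, against 61.9% of all. No shared ATAC peak at FASN passed a 2-fold change, where 2.65% of all shared peaks were 2-fold higher and 0.469% 2-fold lower. Of the 4 control HOXB13 peaks, those 16 and 36.1 kb upstream overlapped a control ATAC peak, and 10.3% of all control HOXB13 peaks did.

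The joined site 60.6 kb downstream held peaks of 6 of the 10 factor and ATAC lists, the most of any site in the window. The control HOXB13 list had no peak there. Its peaks formed a chain from 79995193 to 79995898, with no stretch shared by all 6 lists. At the site 12.3 kb upstream, the peaks of all 5 lists overlapped one another. HOXB13 had 5.72 with shHOXB13 (3.77 to 8.32) at 79995193 to 79995449 and 4.53 with G84E (2.76 to 6.99) at 79995552 to 79995834. These HOXB13 peaks did not overlap each other. Each ATAC library had a pair of peaks there, of 9.03 and 6.67 with shHOXB13 and of 7.47 and 6.92 with pGIPZ, with log2 ratios of 0.27 (−0.60 to 1.13) and −0.05 (−1.03 to 0.89). Together with the deacetylase peaks given above, this site held 8 of the 45 factor and ATAC peaks.

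H3K27ac in PC-3 flanked the FASN start in either group, with a gap between the regions. The region downstream of the start ran from 80051485 to 80056223 with shHOXB13 and from 80051651 to 80056095 with pGIPZ, so that the control region ended 11 bp short of the start and the knockdown region crossed it. It had 125 normalized tags with shHOXB13 (107 to 145) and 127 with pGIPZ (110 to 146), a log2 ratio of −0.02 (−0.33 to 0.28). The region upstream of the start was narrower and denser. It ran from 80056780 to 80058283 with shHOXB13 and from 80056719 to 80058222 with pGIPZ, and held 94.4 normalized tags per kb with shHOXB13 and 69.3 with pGIPZ. Per kb the downstream region held 26.4 with shHOXB13 and 28.6 with pGIPZ.

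The upstream promoter region had more tags after knockdown, as most of the genome's H3K27ac loci did. Its value was 142 with shHOXB13 (123 to 164) and 104.3 with pGIPZ (88.5 to 122), a log2 ratio of 0.45 (0.13 to 0.76). The median log2 ratio over all 37733 loci called in both libraries was 0.27, and 46.2% of tags lay in regions with shHOXB13 against 38.9% with pGIPZ. Relative to that median the ratio at FASN was 0.18, and 35.9% of all loci had a higher one. The interval of the uncorrected ratio includes the median of all loci. A change at the FASN promoter beyond that of the library was therefore not detectable here.

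**Figure D4:**
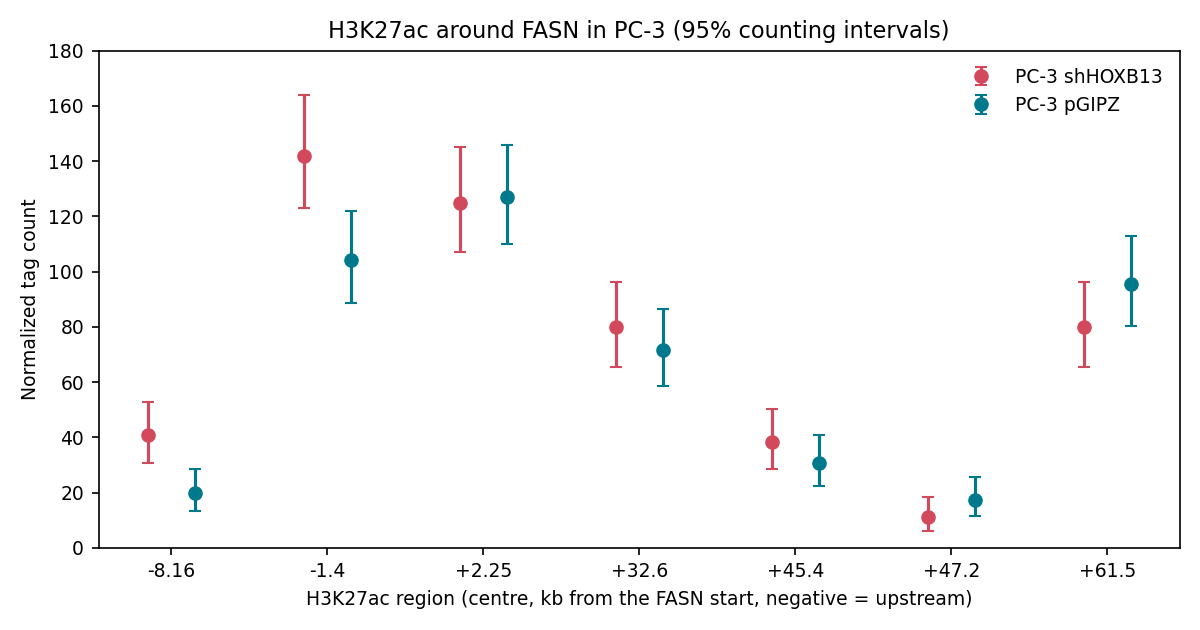
Normalized tag counts of the 7 H3K27ac regions around FASN in PC-3 with shHOXB13 (left points) and pGIPZ (right points), with 95% counting intervals, by distance from the start in kb. The intervals of the groups are apart at the regions 1.4 and 8.16 kb upstream and overlap at the other 5.

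By tags, the region over the deacetylase site had the highest ratio of the 7. Per kb it did not, since its log2 ratio was 0.37 and that of the region 1.4 kb upstream was 0.45. At 8.16 kb upstream H3K27ac was 40.7 with shHOXB13 (30.6 to 52.9), over 2.51 kb, and 20 with pGIPZ (13.5 to 28.6), over 1.59 kb. The log2 ratio was 1.03 (0.35 to 1.71). It was the 1 region of 7 at FASN past a 2-fold change, where 8.44% of all shared loci were 2-fold higher and 2.5% 2-fold lower. The knockdown region was wider, and per kb the values were 16.2 with shHOXB13 and 12.5 with pGIPZ, a log2 ratio of 0.37. Relative to the median of all loci the log2 ratio of tags was 0.76, so neither of these forms passed 2-fold. A higher ratio was found at 7.79% of all loci by tags and at 31.9% by tags per kb. LNCaP had its HDAC3 peak at this place in control cells, and the acetylation was measured in the other line.

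The 4 regions downstream of the gene showed no common direction. At 32.6 kb from the start the value was 79.9 with shHOXB13 and 71.5 with pGIPZ (log2 ratio 0.16, −0.24 to 0.56; −0.11 relative to the median of all loci), and at 45.4 kb it was 38.5 with shHOXB13 and 30.7 with pGIPZ (0.33, −0.28 to 0.93). At 47.2 kb it was 11.1 with shHOXB13 and 17.4 with pGIPZ (−0.65, −1.67 to 0.32), and at 61.5 kb it was 79.9 with shHOXB13 and 95.6 with pGIPZ (−0.26, −0.63 to 0.11; 0.05 per kb). All 7 control regions were called again, against 78.4% of all control loci. Of the 7 ratios 4 were above 0 and 3 were above the median of all loci. Over all regions of the window, H3K27ac was 32.8 normalized tags per kb with shHOXB13, over 15.7 kb, and 30.3 with pGIPZ, over 15.4 kb. Over all regions of the lists it was 37.6 per kb with shHOXB13 and 32.2 with pGIPZ.

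**Figure D5:**
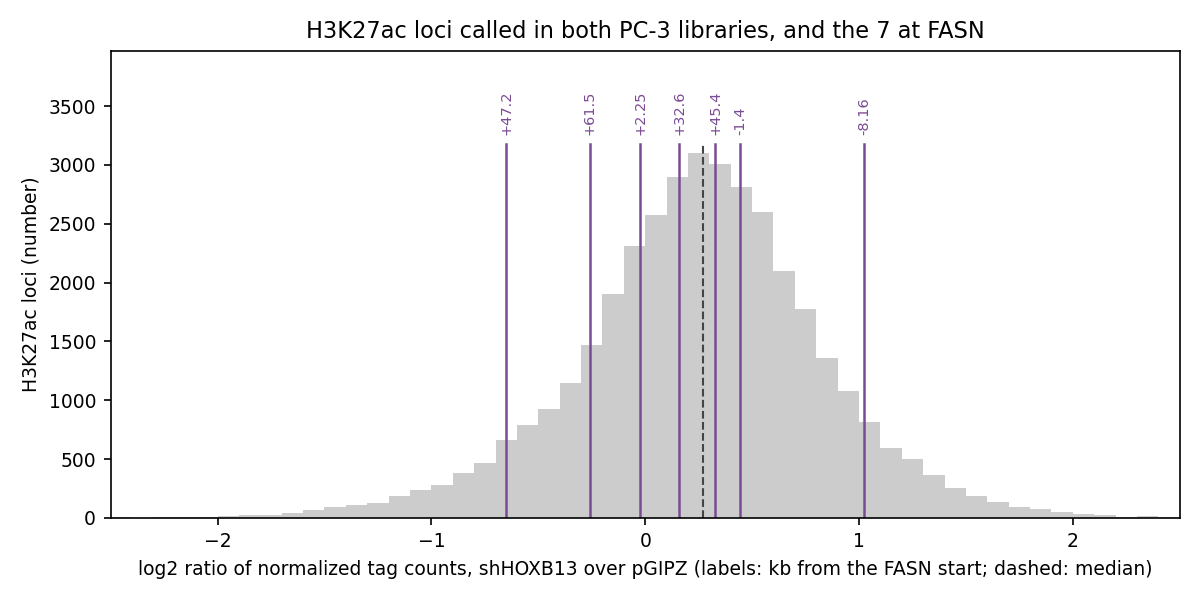
Histogram of the log2 ratio of normalized tag counts, shHOXB13 over pGIPZ, for the 37733 H3K27ac loci called in both PC-3 libraries, with the median of 0.27 dashed and the 7 regions at FASN as labelled lines. The FASN regions spread over the distribution on both sides of the median.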

How the data were processed

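The submitters' processing notes name Bowtie2, HOMER 4.2 and the build hg19. Each library had its own findPeaks run by the authors, per the file headers, whose commands give no input control. Factor style (10 lists) gives peaks of 1 width per library, at a false discovery rate of 0.001 and at least 4-fold over the local 10000 bp. Histone style (2 H3K27ac lists) stitches windows of 1000 bp into regions. The deposited signal is the tag count scaled to 10000000 tags. The deposited score ranked peaks within a list, and each peak's fold over local background, with its p-value, is deposited as the authors had it. That p-value was not used. The lowest listed signal differed between factor-style lists, from 2.21 to 7.17, so a site with no peak is not a site with no tags.

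Whole tags were recovered from signal and library totals (100% of values under 10 were whole within 0.1). From them came exact Poisson intervals and exact (Clopper-Pearson) intervals of log2 ratios. Peaks overlapping by at least 1 bp counted as shared, and the highest was used where several met. H3K27ac regions linked by overlap were summed into loci. Overlap and interval steps were checked on simulated data. All peaks at the promoter and body, sites in 3 or more lists and control HOXB13 sites were described in full. The FASN window, the sites and the comparisons were chosen with earlier results of these data known. Python 3.11.15, numpy 2.4.6, pandas 2.3.3 and scipy 1.17.1 were used.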

Additional observations from a re-analysis of the deposited data

How the results depend on the processing

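Of 134 values under the alternatives tried, 105 stayed within the interval or within 1.5 times of the reported one and 29 moved. The sign changed for 3 log2 ratios whose intervals include 0: H3K27ac 61.5 kb downstream (0.05 per kb), H3K27ac 32.6 kb downstream (−0.11 relative to the median of all loci) and HOXB13 with WT over pGIPZ 12.3 kb upstream (−0.09 relative to the median of all shared peaks). No ratio whose interval excluded 0 changed sign. Restricted to the FASN body and 5 kb on either side, the peaks numbered 1 (HOXB13, shHOXB13), 1 (G84E), 1 (WT), 0 (PC-3) and 1 (pGIPZ), 0 for HDAC3 with shHOXB13, 0 for HDAC1, 0 for HDAC3 with pGIPZ, 0 and 1 for ATAC with shHOXB13 and pGIPZ, and 2 and 2 for H3K27ac, over a shorter stretch. In the better-scoring 50% of each list G84E kept 3 peaks, WT 2, PC-3 HOXB13 0, shHOXB13 HDAC3 1 and shHOXB13 ATAC 5, and 15 sites were left. G84E was then called at 1 of 2 WT peaks and PC-3 at 0 of 3 LNCaP peaks. With equal numbers of peaks (16632 per factor-style list) HOXB13 had 0 peaks with G84E, 0 with WT, 0 in PC-3 and 1 with pGIPZ, HDAC3 with shHOXB13 had 1 and ATAC with shHOXB13 5, whereas HOXB13 with shHOXB13, the shortest HOXB13 list, had 5. The H3K27ac regions past 2-fold numbered 0 as tag density and 0 relative to the median of all loci. Joining peaks within 100 bp gave 22 sites. Overlap rules (centres or 50% of the shorter peak) and shifted windows changed no count by over 1.5 times. The share of control HDAC3 peaks called again, 47.7%, was 86.1% among peaks as strong as the one 8.21 kb upstream and 48.6% among those of them under 5-fold over the local background, a grouping added after the data were seen. No paired analysis was possible because each group was 1 library.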
